A study of Mus musculus with 6 samples.

Results

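The enzymes of phase II conjugation were followed in mouse liver: the UDP-glucuronosyltransferases of the Ugt1, Ugt2 and Ugt3 families, the soluble and mitochondrial glutathione S-transferases, and the cytosolic sulfotransferases. They were taken as every gene of the count table whose symbol begins with Ugt1a, Ugt2a, Ugt2b, Ugt3a or Ugt3b, with Gst followed by the class letter a, k, m, o, p, t or z, or with Sult followed by a digit. This gave 62 of 35977 genes. Membership was decided by the gene symbol.

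The series compared bulk liver messenger RNA of mice given either of a pair of AAV9 gene delivery vectors, each with Cre recombinase under the promoter of Tnnt2, the cardiac troponin T gene. The Cre group (AAV-Tnnt2-Cre, 3 libraries, replicates 10, 11 and 12) received the vector without microRNA sites. The Cre-miR122 group (AAV-Tnnt2-Cre-miR122, 3 libraries, replicates 1, 2 and 4) received a version that adds target sites of the hepatocyte microRNA miR-122, and the study asked how the added sites influence the liver. There was no group without vector, so what both vectors share cannot be seen here. The Tnnt2 promoter is active mainly in heart muscle, and the labels give no strain, age, sex, dose, time after injection or batch. Whether each library of a group is a separate animal is not stated, so the p-values only reflect how far these samples spread, and that spread may be partly technical. In bulk tissue, fewer cells of a type and less RNA per cell cannot be told apart.

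Conjugation makes lipophilic drugs, hormones, bile pigments and bile acids water-soluble so that they can leave the liver in bile or blood. Glucuronosyltransferases of the endoplasmic reticulum transfer glucuronic acid from UDP-glucuronic acid, glutathione transferases add glutathione to electrophiles, and sulfotransferases add sulfate from the donor PAPS. Many of these genes lie in tandem clusters of near-identical copies, several respond to the xenobiotic receptors or to the oxidative stress factor NRF2, and several are known to differ between male and female mouse liver.

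Total counts per library ran from 20340994 to 20817837, and the conjugation genes took 0.606% to 0.747% of them. Cre replicate 10 stood apart: it had 1676 counts of the Y-linked gene Ddx3y against at most 1 in the other libraries, and only 5 Xist counts, from the inactive X chromosome, against 15778 to 22413. It is therefore the only library with the sex-linked counts of a male. The genes whose direction turns on it, and some whose size does, are given without it as well. Summed hepatocyte markers (6 of 6 tested, Alb and Apoa1 among them) stood at 119000 to 142000 CPM (counts scaled to a common library size) with Cre and 136000 to 138000 CPM under Cre-miR122, while the 3 heart muscle markers Myh6, Nppa and Actc1 summed to at most 0.15 CPM. The Cre transcript, which checks the labels, gave 61, 50 and 37 counts under Cre and 12, 16 and 10 under Cre-miR122, so the groups did not overlap. Its mean was 2.40 ± 0.589 CPM under Cre and 0.619 ± 0.146 CPM under Cre-miR122 (SD, n = 3 each). The log2 fold change was -1.95 (SE 0.284, edgeR adjusted p = 0.816 over all genes), and the two-sided p of an exact permutation test was 0.1, which is the lowest this design can reach.

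Near-identical copies limit how far reads can be assigned within these families. Of the pairs that follow, those of Ugt1a6 and Gstp are near copies, while Sult2a6 and Sult2a1 are more distant. Each line gives the first 150 coding bases, 5′ to 3′ on the coding strand, from the GENCODE M21 transcripts of build GRCm38, with the bases that differ within the pair in capitals. Ugt1a6b (chr1:88106942-88107091, plus strand) and Ugt1a6a (chr1:88138474-88138623, plus strand) make glucuronosyltransferases for small planar phenols and differ at 2 of these bases and at 26 of 1593 coding bases. Gstp1 (chr19:4037186-4037863, minus strand) and Gstp2 (chr19:4041480-4042165, minus strand), the pi class glutathione transferases, differ at 6 of these bases and at 12 of 630. Sult2a6 (chr7:14253599-14254833, minus strand) and Sult2a1 (chr7:13836156-13837356, minus strand), sulfotransferases of the class that acts on hydroxysteroids and bile acids, differ at 21 of these bases and at 88 of 855. Spans longer than 150 bases cross an intron.
Ugt1a6b: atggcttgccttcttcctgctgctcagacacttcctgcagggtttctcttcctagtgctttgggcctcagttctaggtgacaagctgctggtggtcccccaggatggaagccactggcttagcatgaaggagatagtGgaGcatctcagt
Ugt1a6a: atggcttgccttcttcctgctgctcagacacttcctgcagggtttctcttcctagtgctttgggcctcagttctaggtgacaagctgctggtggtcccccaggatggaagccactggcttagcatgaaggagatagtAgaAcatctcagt
Gstp1: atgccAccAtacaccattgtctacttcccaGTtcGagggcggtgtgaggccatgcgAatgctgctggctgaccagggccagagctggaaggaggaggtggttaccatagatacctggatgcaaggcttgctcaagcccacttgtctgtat
Gstp2: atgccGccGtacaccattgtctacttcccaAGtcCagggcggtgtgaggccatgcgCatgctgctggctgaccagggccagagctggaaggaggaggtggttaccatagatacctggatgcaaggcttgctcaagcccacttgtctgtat
Sult2a6: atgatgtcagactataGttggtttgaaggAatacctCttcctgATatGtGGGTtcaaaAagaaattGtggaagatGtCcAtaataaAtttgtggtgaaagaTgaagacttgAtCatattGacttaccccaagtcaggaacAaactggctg
Sult2a1: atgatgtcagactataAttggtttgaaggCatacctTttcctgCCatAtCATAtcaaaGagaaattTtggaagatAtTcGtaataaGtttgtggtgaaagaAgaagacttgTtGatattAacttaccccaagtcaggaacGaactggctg

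Of the windows of 50 bases along a transcript, 62.3% of those of Gstp1 occur unchanged in Gstp2. For Ugt1a6a all windows (100%) and for Ugt1a6b 80.7% occur in another gene, mainly in the GENCODE M21 transcripts of Ugt1a7c. These shares exceed the exon length common with other genes in the count table, 70.1% for Ugt1a6a and 57.2% for Ugt1a6b. There 986 and 981 exon bases overlap no other gene, and the reason for the larger window shares was not tested. For Sult2a2 62.1% of windows occur in another gene, for Gsta2 64.2%, for Ugt2b5 41.7%, for Sult2a1 33.2% and for Gstm1 23.1%, but for Sult2a6 only 7.35%. Gsta3, Gstz1, Sult1d1 and Sult2a8 share no window with another gene. The sources used here do not give how reads matching several copies were treated, so the counts of the first group are uncertain between copies, while those of Sult2a6 and of the last group are little affected.

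Upstream sequence was read for the 54 of 62 genes with an entry in the RefSeq promoter table of build GRCm38.p6, taking the 250 bases before each start. A gene was counted if any of its annotated starts had the letters, and some genes have several starts. The antioxidant response core TGACNNNGC, the letters associated with NRF2, was in 3 of the 54 genes (5.56%, Gsta3, Gstm5 and Gstm7) against 11.5% of all 27025 genes. The xenobiotic response core GCGTG was in 8 (14.8%) against 30.9%, and the nuclear receptor core AGGTCA in 11 (20.4%) against 15.8%. Gstp1, Gstm1 and Sult1d1 were among the genes with GCGTG, and Sult2a8, Ugt2b5 and Ugt2b36 among those with AGGTCA. All were searched on both strands, TGACNNNGC can overlap AGGTCA (reverse complement TGACCT) and GCGTG, and a match describes letters, not a bound site.

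The livers held a strongly uneven set of conjugation transcripts. Per length, in RPKM, reads per kilobase of counted exon scaled to library size (mean ± SD over the 6 libraries), Sult2a1 was highest at 936.8 ± 111, followed by Sult2a2 at 764.2 ± 63.3. Gsta3, an alpha class transferase that acts on the aflatoxin epoxide, stood at 431.5 ± 89.1 on this scale. The gaps between these 3 levels were larger than either SD. Gstz1, the maleylacetoacetate isomerase of tyrosine breakdown, stood at 298.6 ± 8.64, and at 386.3 per unshared exon length, where its gap to Gsta3 was within the SD of Gsta3. Lower on the full-length scale, Ugt2b36 stood at 215.7 ± 12.7, Gstm1 at 194.1 ± 17.2 and Gstp1 at 187.9 ± 16.2, where the last pair differed by less than the SD.

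Ugt1a1 stood at 76.19 ± 14.7 on that scale, but the counted length of the Ugt1a genes includes common downstream exons. Per length of the exon bases that no other gene overlaps, Ugt1a1 was at 269.4 ± 52.1. On the unshared scale Ugt1a6b was at 12.74, Ugt1a6a at 8.982 and Ugt1a9 at 3.104 RPKM, so Ugt1a1 was the main Ugt1a transcript on either scale. Ugt1a2 had 0 counts in every library, and Ugt1a7c and Ugt1a10 at most 2, although they share those exons. Reads of the common exons were thus not counted for these genes. The full-length level of Ugt1a1 may therefore divide by exon bases that gave it no reads.

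**Figure D1:**
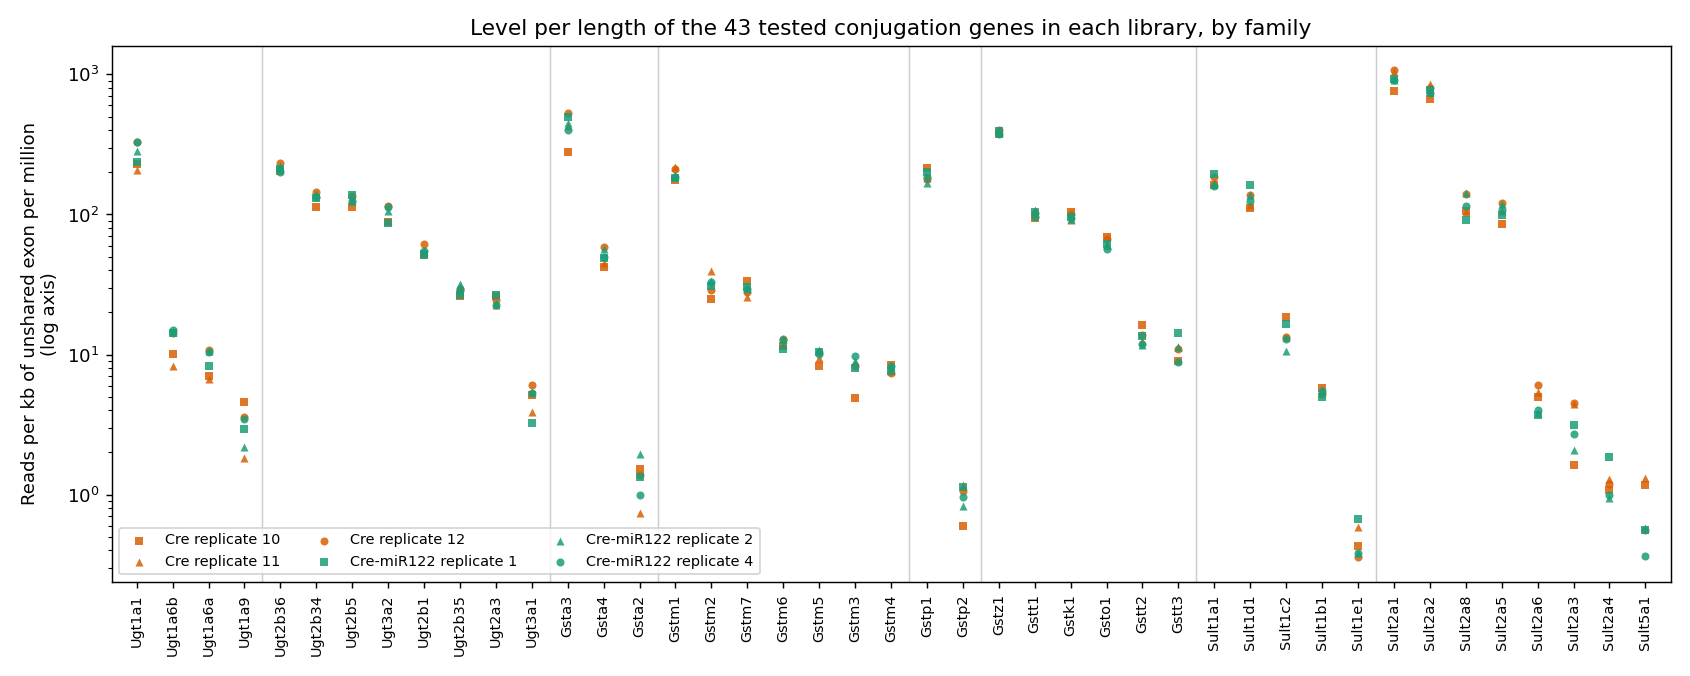
Level of each tested conjugation gene in the 6 libraries, in RPKM over exon bases that no other gene overlaps, on a log axis, arranged by family, with 1 point per library and the group by colour. The Sult2a1 and Sult2a2 points lie at the top, and the groups are intermixed for nearly every gene.

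The sulfotransferases Sult2 to Sult6 took 27.9% of the conjugation counts, the Ugt2 and Ugt3 genes 22.8%, the Gstk, Gsto, Gstt and Gstz genes 14.8%, and the Sult1 genes 12.3%. Gsta took 10.7%, Gstm 5.69%, Ugt1a 3.88% and Gstp 2.02%. Of the 62 genes 43 passed the filter on low counts. Ugt1a2, Ugt2a1, Ugt2a2, Sult1c1 and Sult3a2 had 0 counts in all 6 libraries, which allows up to 0.14 to 0.15 CPM per library for a count of 3. The other 14 were Ugt1a5, Ugt1a7c, Ugt1a10, Ugt2b37, Ugt2b38, Gsta1, Gsto2, Gstt4, Sult2a7, Sult2b1, Sult3a1, Sult4a1, Sult6b1 and Sult6b2, with at most 13 counts in a library.

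Between the vectors no conjugation gene passed the test. Of the 43 tested, 0 had an edgeR adjusted p under 0.05, against 0 of all 14374 genes (0%), and the smallest adjusted p was 0.816. DESeq2 and limma-voom also called 0 of them. At an unadjusted p under 0.05 edgeR listed 3 of 43 (6.98%), namely Ugt1a6b with a higher and Sult2a6 and Sult5a1 with a lower level in Cre-miR122, against 5.41% of all genes. The groups did not overlap for 2 of 43 (4.65%), Sult2a6 and Ugt1a6b, against 11.1% of all genes.

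The log2 fold change (Cre-miR122 over Cre) lay above 0 for 23 genes (53.5%), against 49.4% of all genes, and below 0 for 20. Its median was 0.013, with quartiles of -0.061 and 0.076, against -0.0029 over all genes. The median absolute value was 0.071, against 0.11 over all genes. The 95% interval lay within 1 on the log2 scale in either direction for 40 of 43 genes and within 0.5 for 27, so changes above 2-fold lay outside the interval for most genes, and smaller ones were not detectable for many.

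**Figure D2:**
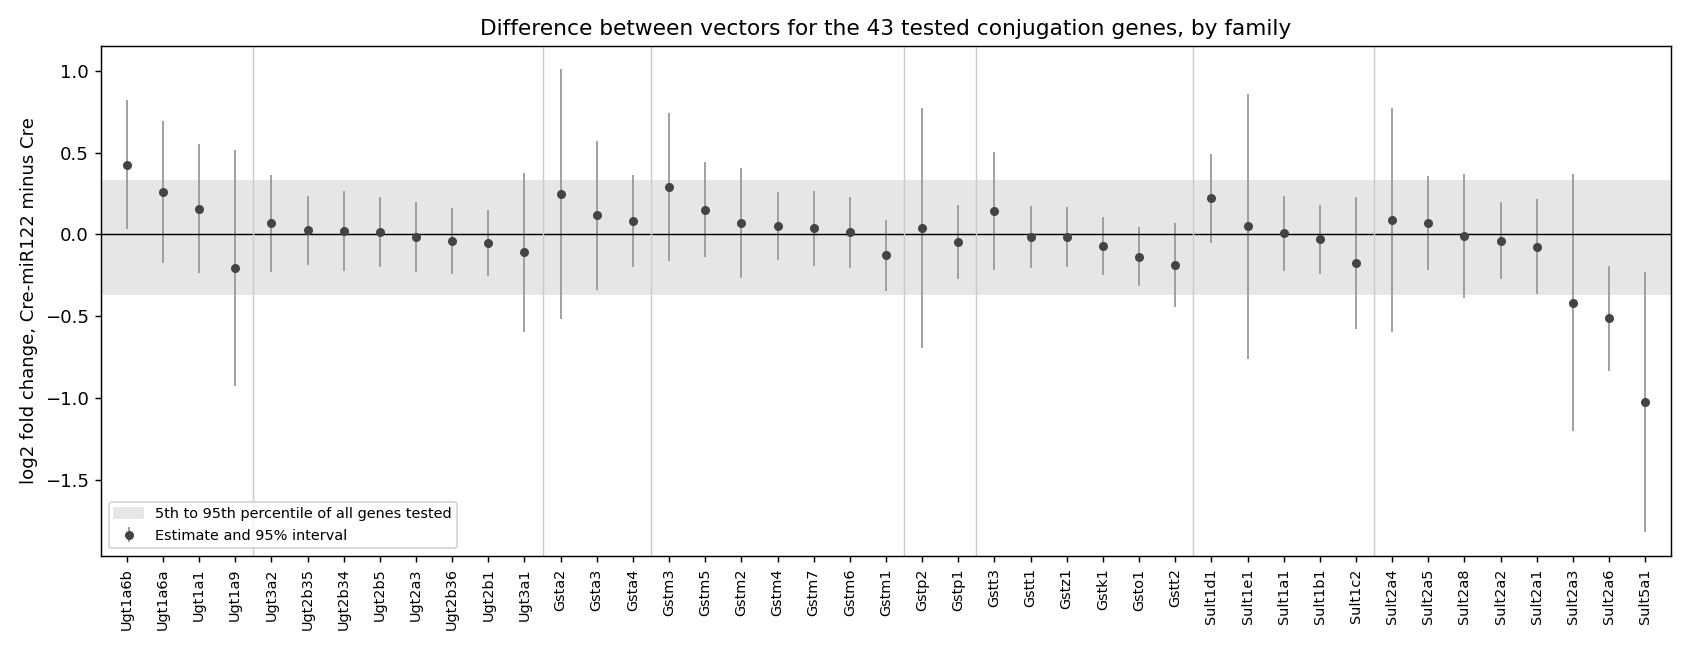
Log2 fold change of Cre-miR122 over Cre for each tested conjugation gene (points) with its 95% interval (bars) from the edgeR fit, arranged by family, and the range from the 5th to the 95th percentile of all genes in grey (-0.361 to 0.326). The points of Sult2a6, Sult5a1, Sult2a3 and Ugt1a6b lie outside the grey range.

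Among the glucuronosyltransferases, Ugt1a6b was at 9.96, 8.06 and 14.0 CPM in Cre replicates 10, 11 and 12 and at 14.0, 14.3 and 14.7 CPM in Cre-miR122 replicates 1, 2 and 4. Its means were 10.7 ± 3.03 and 14.3 ± 0.353 CPM (SD, n = 3 each), a 1.34-fold difference. The groups did not overlap, but Cre replicate 12 lay just under the lowest Cre-miR122 library. The log2 fold change was 0.43 (SE 0.176, 95% interval 0.031 to 0.82, edgeR adjusted p = 0.816), and it ran from 0.26 without Cre replicate 11 to 0.67 without Cre replicate 12. Its coding sequence differs from that of Ugt1a6a at only 26 of 1593 bases, so its counts are uncertain between these copies.

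Its near copy Ugt1a6a was at 6.93, 6.62 and 10.7 CPM under Cre and 8.18, 10.4 and 10.3 CPM under Cre-miR122, a log2 fold change of 0.26 (SE 0.193). Ugt1a1, which makes the enzyme that conjugates bilirubin, was at 209.8, 189.5 and 298.9 CPM under Cre and 216.8, 261.1 and 300.01 CPM under Cre-miR122. The groups overlapped throughout for these genes, with Cre replicate 12 near the top in both. Ugt1a1 was 0.16 higher on the log2 scale (SE 0.175), which was 0.027 without Cre replicate 11 and 0.38 without Cre replicate 12. Ugt1a9, with few counts, stood at -0.21 on that scale (SE 0.320), and at 0.11 without Cre replicate 10. Of the 4 tested Ugt1a genes 3 lay above 0, with a median of 0.21. Ugt1a2, with the same common exons, had 0 counts, and how far the counts of these 4 rest on reads of near copies is not known.

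The Ugt2b genes, which act on steroids, bile acids and drugs, differed little between the groups. Ugt2b36 was at 383.5, 412.9 and 443.5 CPM under Cre and 400.0, 422.4 and 381.3 CPM under Cre-miR122. Ugt2b34 was at 342.0, 429.5 and 442.9 CPM under Cre and 398.1, 424.9 and 408.7 CPM under Cre-miR122. For both the Cre-miR122 libraries lay inside the range of the Cre libraries, apart from replicate 4 for Ugt2b36. Ugt2b1, Ugt2b5, Ugt2b34, Ugt2b35, Ugt2b36 and Ugt2a3 had log2 fold changes between -0.052 and 0.026. Ugt3a2, of the family that can use sugars other than glucuronic acid, was at 204.6, 208.8 and 266.3 CPM under Cre and 202.2, 248.5 and 261.5 CPM under Cre-miR122, and Ugt3a1 stood at -0.11 as log2 fold change (SE 0.216). The median of the 8 tested Ugt2 and Ugt3 genes was 0.00097, and it was -0.020 without scaling beyond total counts.

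Among the sulfotransferases, Sult2a6 (chromosome 7, 14222403 to 14254870 in GRCm38, minus strand) had the smallest p of all conjugation genes. It was at 4.80, 5.27 and 5.90 CPM under Cre and at 3.59, 3.72 and 3.87 CPM under Cre-miR122, so every Cre library lay above every Cre-miR122 library. The means were 5.32 ± 0.55 and 3.73 ± 0.14 CPM (SD, n = 3 each), 1.43-fold lower with Cre-miR122. Its log2 fold change was -0.51 (SE 0.144, 95% interval -0.84 to -0.19, edgeR adjusted p = 0.816). It ran from -0.58 to -0.43 when each library was left out in turn, and the unadjusted edgeR p stayed between 0.00594 and 0.0245. These fits share most libraries with the full fit, in which the gene was picked.

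Sult5a1 (chromosome 8, 123142843 to 123158913, minus strand) was at 1.88, 2.10 and 0.900 CPM under Cre and 0.898, 0.919 and 0.581 CPM under Cre-miR122. Cre replicate 12 lay among the Cre-miR122 libraries, so the groups overlapped. For Sult5a1 the log2 fold change was -1.03 (SE 0.353, 95% interval -1.82 to -0.23, edgeR adjusted p = 0.816), from 12 to 45 counts per library. It was -0.80 without Cre replicate 11 and -1.31 without Cre replicate 12.

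The abundant genes of the Sult2a cluster had log2 fold changes nearer 0 than Sult2a6. Sult2a1 was at 781.7, 1069.8 and 1092.6 CPM under Cre and 943.5, 925.6 and 925.8 CPM under Cre-miR122 (-0.075 as log2 fold change, SE 0.129). Sult2a2 was at 495.3, 632.9 and 593.8 CPM under Cre and 577.1, 554.9 and 543.5 CPM under Cre-miR122 (-0.040 as log2 fold change, SE 0.105). In both genes Cre replicate 10 was the lowest library and the other Cre libraries were the highest. Sult2a5 stood at 89.0, 110.8 and 125.9 CPM under Cre and 104.1, 124.9 and 113.1 CPM under Cre-miR122, a log2 fold change of 0.071 (SE 0.127). Sult2a8, which sulfates bile acids, was at 265.3, 263.4 and 353.7 CPM under Cre and 228.9, 356.7 and 291.0 CPM under Cre-miR122. Its log2 fold change of -0.0096 (SE 0.169) is near 0, but the libraries spread widely, with Cre replicate 12 and Cre-miR122 replicate 2 high. Sult2a4 was at about 1 CPM, with a log2 fold change of 0.088 (SE 0.303). Of the 8 tested genes of Sult2 to Sult6, 6 lay below 0, with a median of -0.057, and a difference between Sult2a6 and its neighbours was not tested.

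**Figure D3:**
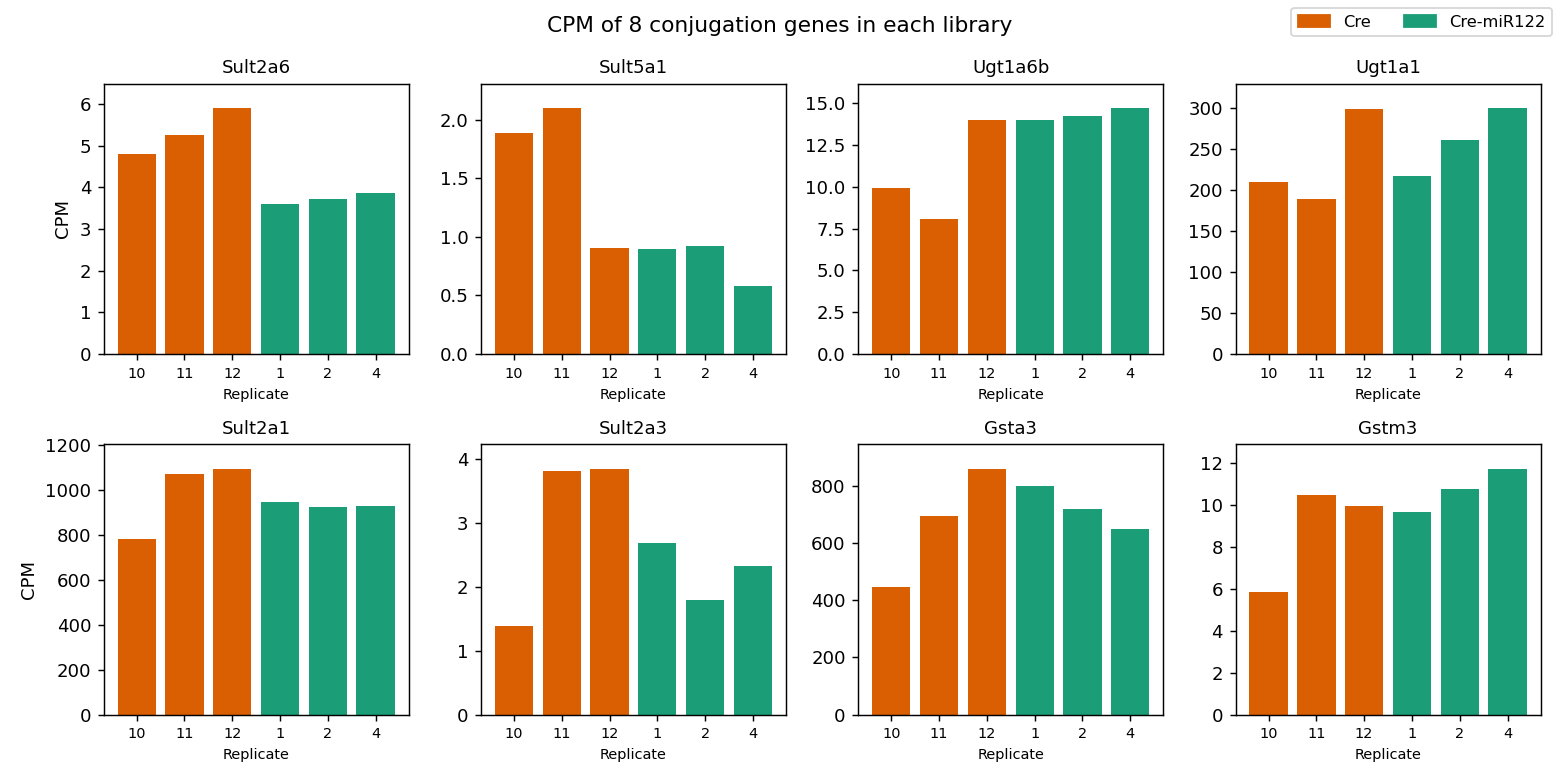
CPM in each library (bars, Cre replicates 10, 11, 12 and Cre-miR122 replicates 1, 2, 4) for Sult2a6, Sult5a1, Ugt1a6b, Ugt1a1, Sult2a1, Sult2a3, Gsta3 and Gstm3, each on its own axis from 0. Sult2a6 and Ugt1a6b are the genes without overlap between the groups, and Sult2a1, Sult2a3, Gsta3 and Gstm3 are lowest in Cre replicate 10.

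Sult1d1, which sulfates catecholamines, was at 265.4, 278.9 and 328.8 CPM under Cre and 389.3, 330.4 and 298.0 CPM under Cre-miR122, with overlap between replicate 12 and replicate 4. Its log2 fold change was 0.22 (SE 0.121). Sult1a1, the phenol sulfotransferase, was at 474.2, 496.9 and 536.0 CPM under Cre and 568.6, 480.8 and 464.3 CPM under Cre-miR122, so Cre-miR122 held both the highest and the lowest library. Its log2 fold change was 0.0064 (SE 0.103), and -0.015 without scaling beyond total counts. Sult1c2 stood at -0.17 (SE 0.178, and 0.0021 without Cre replicate 10), Sult1b1, which acts on thyroid hormones, at -0.030 (SE 0.0932), and the estrogen sulfotransferase gene Sult1e1, at under 1 CPM, at 0.049 (SE 0.359) on the log2 fold change scale.

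Among the glutathione transferases, Gsta3 was at 446.4, 694.1 and 859.9 CPM under Cre and 800.8, 718.4 and 648.9 CPM under Cre-miR122. The Cre libraries alone spanned the whole range. Its log2 fold change was 0.12 (SE 0.203) and turned to -0.105 without Cre replicate 10. Gsta4, which removes the lipid peroxidation product 4-hydroxynonenal, stood at 0.082 (SE 0.125), which was -0.0086 without Cre replicate 10. Gsta2, at 0.746 to 1.98 CPM, had a log2 fold change of 0.25 (SE 0.338), which was 0.44 without Cre replicate 10. It turned to -0.020 without Cre replicate 11 and to -0.051 without Cre-miR122 replicate 2. All 3 tested alpha class genes lay above 0, but each turned below 0 without some single library.

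The mu class genes lie in a cluster on chromosome 3. Gstm1, the most abundant, was at 243.4, 301.1 and 289.1 CPM under Cre and 248.3, 262.6 and 253.1 CPM under Cre-miR122 (-0.13 as log2 fold change, SE 0.0963). Gstm3 was at 5.85, 10.5 and 9.95 CPM under Cre and 9.67, 10.7 and 11.7 CPM under Cre-miR122 (0.29 as log2 fold change, SE 0.201, and 0.067 without Cre replicate 10). Gstm1 and Gstm3 thus pointed in opposite directions, and in both the groups overlapped. Gstm2 stood at 0.071 (SE 0.150), which was -0.064 without Cre replicate 10, and Gstm7 one of 0.038 (SE 0.102). Gstm5 stood at 0.15 (SE 0.129, and 0.067 without Cre replicate 10), Gstm4 at 0.051 (SE 0.0916) and Gstm6 at 0.013 (SE 0.0958). Of the 7 genes 6 lay above 0, and 5 did without scaling beyond total counts.

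Gstp1 was at 158.5, 134.8 and 132.8 CPM under Cre and 149.4, 125.4 and 138.1 CPM under Cre-miR122 (-0.045 as log2 fold change, SE 0.10, and 0.041 without Cre replicate 10). Gstp2 had 9 to 19 counts per library and stood at 0.041 as log2 fold change (SE 0.326), with the uncertainty of near copies noted above. Gstz1 was the steadiest tested conjugation gene, at 625.0, 649.1 and 667.6 CPM under Cre and 662.6, 632.5 and 626.4 CPM under Cre-miR122, a coefficient of variation of 2.89% over the 6 libraries. The other genes reached up to 51%. Gstt1, a theta class gene, stood at -0.015 as log2 fold change (SE 0.0840), the mitochondrial and peroxisomal Gstk1 -0.070 (SE 0.0795), and Gsto1, which reduces dehydroascorbate, -0.14 (SE 0.0800). Gstt2 stood at -0.19 (SE 0.114, and -0.076 without Cre replicate 10) and Gstt3 at 0.14 (SE 0.161). Of the 6 tested genes of these classes 5 lay below 0, and in none did the groups separate.

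Cre replicate 10, the library with male sex-linked counts, was the lowest of the 6 libraries for 17 of the 43 tested genes (39.5%), against 15.8% of all genes. It was the highest for 9 (20.9%), also against 15.8% of all genes. Cre replicate 12 was the highest library for 13 (30.2%), against 13.2% of all genes, and the lowest for 2. For Cre replicate 10 the median difference from the mean of the other 5 libraries was -0.15 on the log2 scale, against 0.0007 over all genes. Among genes with a mean of at least 1 CPM, the largest differences below were those of Sult2a3 (-0.95), Gstm3 (-0.83), Gsta3 (-0.73), Gstm2 (-0.40) and Ugt1a6a (-0.39). The largest above were those of Sult5a1 (0.87), Ugt1a9 (0.75), Sult1c2 (0.49), Gstt2 (0.35) and Gsta2 (0.29). For Ugt1a6a, Sult5a1 and Gsta2, however, Cre replicate 10 lay within the range of the other libraries. The pericentral zonation markers Glul, Oat, Cyp2e1, Slc1a2, Axin2, Lgr5, Rgn and Rhbg were also lowest in Cre replicate 10. Glul was at 545.8 CPM there against 854.1 to 1027 CPM elsewhere, and Oat at 211.9 against 223.7 to 290.6 CPM. Of the periportal markers Hal, Sds and Gls2 were highest there and Cyp2f2 lowest, while Cps1, Ass1, Pck1 and Arg1 were neither. All of these periportal markers except Cyp2f2 were lowest in Cre replicate 11. As 1 library stands against 5, these differences have no test, and the parts of sex and zonation in them were not tested.

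Sult2a3, a hydroxysteroid sulfotransferase gene, was at 1.39, 3.82 and 3.85 CPM under Cre and 2.69, 1.79 and 2.32 CPM under Cre-miR122. Replicate 10 was the lowest of all libraries and the other Cre libraries were the highest. Its log2 fold change of -0.42 (SE 0.350) was -0.76 without Cre replicate 10. Without that library 4 of 43 genes (9.30%) had an unadjusted edgeR p under 0.05, namely Sult2a3, Sult2a1, Gstm1 and Sult2a6, against 5.64% of all genes. Sult2a1 then stood at -0.215 and Gstm1 at -0.213 as log2 fold change. Without it 16 of the 43 genes had the other sign, 11 of them above 0 with all libraries and 5 below, and the median over the 43 was -0.031. They included Gstp2 (-0.20), Ugt2b34 (-0.087), Ugt2b5 (-0.059), Sult2a5 (-0.053), Ugt2b35 (-0.031) and Ugt2a3 (0.043). Also among them were Sult1a1 (-0.0335), Gstm6 (-0.0186), Sult1b1 (0.0128) and Ugt3a2 (-0.000681). Each of these values was smaller in size than its standard error over the 6 libraries. Of the adult sex-biased liver genes, those higher in females summed to 938 CPM in Cre replicate 10 and 1010 to 1250 CPM in the others (8 of 8 tested). Those higher in males summed to 103 CPM and 101 to 135 CPM (5 of 8 tested). The male-biased sum was mostly Cyp2d9, at 78.76 CPM in Cre replicate 10. In that library the male-biased genes Cyp4a12a, Cyp4a12b and Mup20 had only 1, 0 and 8 counts. Sult3a1, known as female-biased, had 2 counts in Cre replicate 10 and 0 elsewhere.

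**Figure D4:**
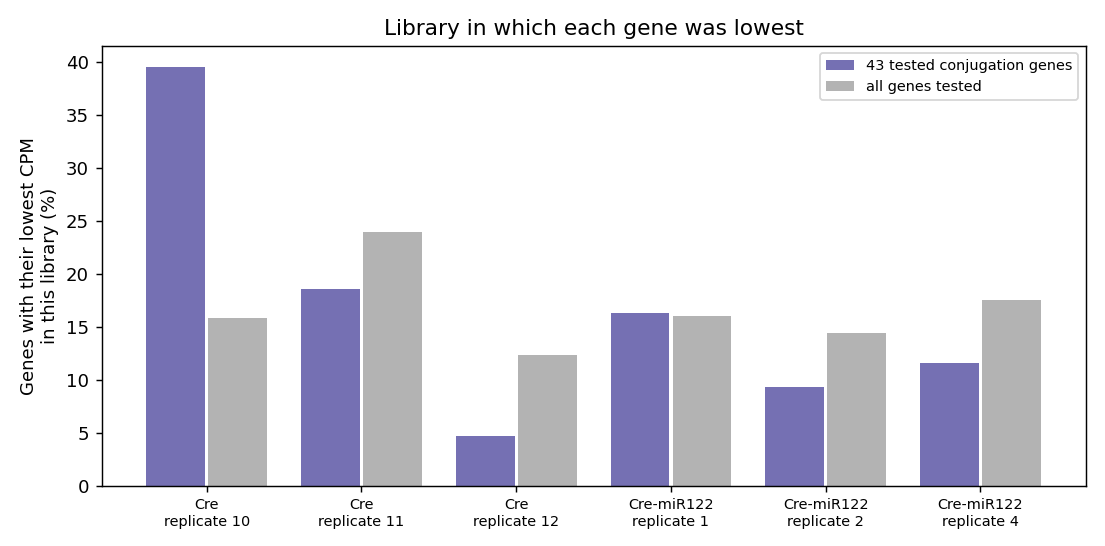
Percent of genes for which each library is the lowest of the 6, for the 43 tested conjugation genes and for all 14374 genes tested. Cre replicate 10 is lowest for 39.5% of the conjugation genes and 15.8% of all genes, and Cre replicate 12 for 4.65% and 12.3%.

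Leaving out another library also altered which genes had an unadjusted edgeR p under 0.05. Without Cre replicate 12 there were 7, namely Ugt1a6b, Ugt1a6a, Ugt1a1, Sult1d1, Sult2a6, Sult5a1 and Gsta4 (16.3% of 43), against 10.5% of all genes. Without Cre replicate 11 there were 4 (9.30%), Gstt2, Gsto1, Gstm2 and Sult2a6, against 3.22% of all genes. Sult2a6 alone was listed whichever library was left out. It already had the smallest p of these genes with all libraries, which these fits largely share, so this is not separate support.

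The genes that supply and remove the conjugation donors were described with the same fit, and 0 of them passed the test. Of the 3 genes of UDP-glucuronic acid supply all 3 lay above 0, with Ugdh, which makes UDP-glucuronic acid, at 0.15 (SE 0.0857) and Ugp2 at 0.11 (SE 0.132) on the log2 fold change scale. Of the 5 genes of PAPS supply and breakdown 4 lay above 0. Impad1, the Golgi phosphatase that clears the by-product of sulfation, was at 25.8, 21.2 and 27.0 CPM under Cre and 31.4, 32.7 and 33.3 CPM under Cre-miR122, without overlap (0.40 as log2 fold change, SE 0.102, edgeR adjusted p = 0.816). Its cytosolic counterpart Bpnt1 stood at 0.092 (SE 0.0783). Of 11 glutathione genes 6 lay above 0 and 5 below, with the glutathione synthetase gene Gss at -0.15 (SE 0.0772) and the glutathione reductase gene Gsr at -0.079 (SE 0.0831). Of 4 tested membrane and other transferases 3 lay below 0, among them Mgst1 (-0.18, SE 0.106) and Mgst3 (-0.17, SE 0.116).

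Of 13 genes of methyl, acetyl and amino acid conjugation 4 lay above 0 and 9 below, with the thiopurine methyltransferase gene Tpmt at 0.16 (SE 0.0838) and the methyltransferase gene Inmt at -0.21 (SE 0.148). Of 5 hydrolase genes, only some of which remove conjugates, 4 lay above 0. The lysosomal sulfatase gene Arsb stood at 0.27 (SE 0.102) and the epoxide hydrolase gene Ephx1 at 0.22 (SE 0.106). Of 8 exporters 6 lay below 0. Abcc2, the pump that moves glucuronide and glutathione conjugates into bile, pointed the other way: it was at 205.3, 182.3 and 225.7 CPM under Cre and 274.4, 240.5 and 244.3 CPM under Cre-miR122. Its groups did not overlap, and the log2 fold change was 0.31 (SE 0.101, edgeR adjusted p = 0.816). The canalicular pump gene Abcg2 was at 0.15 (SE 0.0957).

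Of 16 regulators 11 lay above 0, with a median of 0.059. Rxra, the partner of the xenobiotic receptors, stood at 0.20 as log2 fold change (SE 0.0947) and Maff, a small Maf factor that pairs with NRF2, one of -0.49 (SE 0.211). Of 13 xenobiotic response genes outside phase II, 8 lay above 0 with a median of 0.015, among them the NRF2 target Nqo1 at 0.36 (SE 0.170), while the carboxylesterase gene Ces2a was at -0.14 (SE 0.0812). Of 16 zonation markers 14 lay above 0 with a median of 0.088, with the urea cycle genes Cps1 at 0.37 (SE 0.180) and Ass1 at 0.24 (SE 0.163). Cre replicate 11 was the lowest library for both, at 2563 CPM of Cps1 and 1697 CPM of Ass1. The periportal markers Pck1, Hal, Sds, Gls2 and Arg1 were lowest there too, but Cyp2f2 was not. Of the pericentral markers, Glul, Slc1a2 and Rhbg were highest there, while Oat, Cyp2e1, Axin2, Lgr5 and Rgn were not. The part of Cre replicate 11 in the counts of the list was not tested. The pericentral markers of the list were lowest in Cre replicate 10, as given above. Over all these lists 4 of 94 tested genes (4.26%), Impad1, Arsb, Abcc2 and Maff, had an unadjusted edgeR p under 0.05, against 5.41% of all genes. The groups did not overlap for 9 of the 94 (9.57%), Impad1 and Abcc2 among them, against 11.1% of all genes.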

How the data were processed

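The deposited values are raw read counts, whole numbers for each gene, not normalized. The tools named in the submitters' processing notes are STAR 2.7.9a and featureCounts 2.0.1, and the build is GRCm38 (mm10). The sources used here do not give the annotation, the strand setting or the handling of multi-mapping reads. The table has 5 further per-sample columns without a matching sample, which were not used. Genes were tested with the edgeR 4.0.16 quasi-likelihood F test (R 4.3.3; TMM scaling, filterByExpr, group alone, two-sided, Cre-miR122 minus Cre), with Benjamini-Hochberg adjustment over all 14374 genes tested and a threshold of 0.05. Unshared exon lengths were computed from the exon coordinates in the deposited table, and coding sequences were read from GENCODE M21 transcripts of the same build. CPM values use TMM-scaled library sizes; standard errors come from the F statistic. The floor of a count of 0 was 3 counts, and it covers counting error only. DESeq2 1.42.0, limma-voom (limma 3.58.1), other scalings and filters, a robust fit and leaving out each library were alternatives.

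No library repeated another: chi-square over degrees of freedom was 6.16 or more for each pair. By this value the libraries did not group by vector. Cre replicate 12 was nearer to Cre-miR122 replicates 2 (6.31) and 4 (8.81) than to Cre replicates 10 (19.77) and 11 (20.09). The members, lists and tests were chosen with earlier results of these data known. Named genes were those with an unadjusted p under 0.05, the 3 highest per length and the 1 with the smallest p in each of 8 families, the 5 largest differences of Cre replicate 10 in each direction at a mean of at least 1 CPM, Cre, and the 2 genes of smallest p in each other list; further members are named to account for them all.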

Additional observations from a re-analysis of the deposited data

How the results depend on the processing

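In all 13 alternative settings 0 conjugation genes were called, and the smallest adjusted p of such a gene was 0.431. Their median log2 fold change ran from -0.031 to 0.032. Over all genes, 2 were called without a filter on low counts, where more genes are tested, and 3 by DESeq2, the Cre transcript among them in both (log2 fold change -1.94 and -1.96); the cause was not tested. The number of conjugation genes with an unadjusted p under 0.05 ran from 2 to 7 over the libraries left out, with 7 without Cre replicate 12. Among all genes that number was 1169 without a filter, and leaving out 1 library gave 467 (Cre replicate 11), 1535 (Cre replicate 12) and 425 (Cre-miR122 replicate 4). Per length of unshared exon the level was 269.4 for Ugt1a1, 12.74 for Ugt1a6b, 8.982 for Ugt1a6a, 3.104 for Ugt1a9, 386.3 for Gstz1 and 172.8 for Sult1a1 RPKM, higher by construction because the length is shorter. Without scaling beyond total counts Ugt2b34 (-0.0019), Ugt2b5 (-0.0053) and Sult1a1 (-0.015) turned below 0.

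Of the 43 genes 14 kept their sign in all settings. With each library left out in turn, 29 of the 43 genes crossed 0, and the cause was not tested. For those named by the rule, the ranges of the log2 fold change were -0.105 to 0.34 for Gsta3, -0.0086 to 0.23 for Gsta4, -0.051 to 0.45 for Gsta2, -0.064 to 0.28 for Gstm2, -0.042 to 0.15 for Gstm7, -0.11 to 0.041 for Gstp1 and -0.20 to 0.23 for Gstp2. They were -0.070 to 0.031 for Gstt1, -0.040 to 0.0083 for Gstz1, -0.087 to 0.091 for Ugt2b34, -0.059 to 0.072 for Ugt2b5, -0.094 to 0.012 for Ugt2b36, -0.094 to 0.032 for Ugt2b1 and -0.51 to 0.11 for Ugt1a9. They were -0.088 to 0.063 for Sult1a1, -0.36 to 0.0021 for Sult1c2, -0.215 to 0.0096 for Sult2a1, -0.135 to 0.036 for Sult2a2 and -0.18 to 0.15 for Sult2a8. The other 10 were Gstt3, Gstm6, Sult1b1, Sult1e1, Sult2a4, Sult2a5, Ugt2a3, Ugt2b35, Ugt3a1 and Ugt3a2, all within -0.285 to 0.294.

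The gene choice held no pseudogene or antisense entry, so the alternative that leaves those out changed nothing. No paired analysis was possible because the groups share no replicate number. Depth limits the genes with few counts, among the tested ones Sult1e1, Gstp2, Sult2a4, Sult5a1 and Gsta2, with 73 to 164 counts over the 6 libraries.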
